A study of Mus musculus with 16 samples.

Results

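Mitochondrial tRNA-Ile (anticodon GAT, mito_tRNA-Ile-GAT-1 in the tables), tRNA-Met (anticodon CAT, mito_tRNA-Met-CAT-1) and tRNA-Trp (anticodon TCA, mito_tRNA-Trp-TCA-1) are described here across mouse embryonic fibroblasts (MEFs) and mouse hearts. They were chosen by name as the tRNAs of the heavy-strand-transcribed group that lie around the genes ND1 and ND2 and before CO1. The rule did not use their measured values, but earlier results of these data were known when it was set. They are 3 of 22 mitochondrial tRNAs, in count tables of 819 rows for the MEFs and 821 rows for the hearts, and all 3 passed the filter on low counts in both. The study edited mitochondrial DNA in a mouse model that the labels call m.5024T, whose mutation lies in the gene of mt-tRNA-Ala. The MEF set held 2 libraries each of the lines Cl_1, Cl_2, Cl_3 and Ctrl_1, whose names the labels do not explain, and the 2 libraries of a line are cell passages. The heart set held 4 mice given AAV9-DdCBE (mice 17 and 18 labelled 10X, mouse 25 labelled 5X and mouse 26 labelled 2X) and 4 given AAV9-GFP (mice 5 and 6 labelled 5X, mice 14 and 19 labelled 3X). AAV9 is a viral vector that reaches the heart well, a DdCBE is a protein editor that converts cytosine in mitochondrial DNA, and GFP is a fluorescent control protein. The hearts are from the m.5024T model in both groups, while the labels do not say whether the MEF lines derive from it, give no age or strain, and do not say what the X labels stand for.

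Mitochondrial DNA is transcribed into long precursors, and tRNAs placed between the coding regions are cut out to release the rRNAs, mRNAs and tRNAs. Mt-tRNA-Ile reads the isoleucine codons. Mt-tRNA-Met serves both the start and the elongation of mitochondrial translation, and its modified anticodon reads AUA as well as AUG as methionine. Mt-tRNA-Trp reads UGA, a stop codon in the cytosol, as tryptophan in mitochondria. In the RefSeq gene order mt-tRNA-Ile follows ND1, mt-tRNA-Gln separates it from mt-tRNA-Met, ND2 follows mt-tRNA-Met, and mt-tRNA-Trp stands between ND2 and mt-tRNA-Ala. Mt-tRNA-Gln and mt-tRNA-Ala are encoded on the opposite strand. The genes of mt-tRNA-Ile and mt-tRNA-Met are each 69 bases long and that of mt-tRNA-Trp 67 bases.

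Total counts ran from 1473330 to 4375975 per MEF library and from 1540287 to 3037178 per heart library. Mitochondrial tRNAs took 2.14% to 3.01% of counts in the Cl libraries, against 3.41% and 3.74% in Ctrl_1, and 38.9% to 59.9% in the AAV9-DdCBE hearts, against 37.4% to 43.3% in the AAV9-GFP hearts, with mouse 17 the highest. Mt-tRNA-Ala, the gene the study is about, was lower in the Cl lines than in Ctrl_1 (mean log2 change -1.68, edgeR adjusted p = 1.95e-04). In the hearts its log2 difference of AAV9-DdCBE from AAV9-GFP was 1.31 (edgeR adjusted p = 0.0866). No mRNA was measured, so the labelled cell type and tissue could not be set against marker genes.

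All 3 tRNAs were lower in the Cl lines than in Ctrl_1. Mt-tRNA-Ile had 1240.1 and 1801 CPM (counts scaled to a common library size by TMM) in Cl_1, 1445 and 1442 in Cl_2 and 1245 and 1473 in Cl_3, against 2522 and 2229 CPM in Ctrl_1. The highest Cl library lay below the lower of both Ctrl_1 libraries, and the Cl_2 passages were nearly equal. Mt-tRNA-Met had 1327 and 1727 CPM in Cl_1, 1248 and 1027 in Cl_2 and 1221 and 1362 in Cl_3, against 2243 and 2019 CPM in Ctrl_1. Its groups did not overlap either, and replicate 2 of Cl_2 was the lowest. Mt-tRNA-Trp had 1284 and 1884 CPM in Cl_1, 1786 and 1555 in Cl_2 and 1386 and 1576 in Cl_3, against 3289 and 2486 CPM in Ctrl_1. The Ctrl_1 passages of mt-tRNA-Trp stood further apart than those of the other pair, and every Cl library was below both. Groups that did not overlap with the Cl libraries lower were found for 22.9% of the 201 transcripts tested. In bulk RNA, fewer mitochondria per cell and less of a tRNA per mitochondrion cannot be told apart.

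Averaged over the Cl lines, mt-tRNA-Trp fell by 0.87 on the log2 scale, a 1.83-fold lower level (SE 0.16, edgeR adjusted p = 0.00387). Mt-tRNA-Ile fell by 0.72, or 1.65-fold (edgeR adjusted p = 0.00453, SE 0.14). Mt-tRNA-Met fell by 0.70, or 1.63-fold (edgeR adjusted p = 0.00325, SE 0.12). All 3 were below both Ctrl_1 libraries in 6 of 6 Cl libraries, as were 22.9% of all transcripts tested. By the edgeR test, 25.4% of all transcripts tested were called lower and 22.9% higher. Among the other 11 tRNAs of the heavy-strand-transcribed group 8 were called lower, and all 11 changes were below 0, from -1.25 to -0.22. Their median was -0.76 on the log2 scale, beside -0.72 for mt-tRNA-Ile, mt-tRNA-Met and mt-tRNA-Trp and -7.95e-04 for all transcripts tested. Counted from the largest fall, mt-tRNA-Trp was number 5, mt-tRNA-Ile number 8 and mt-tRNA-Met number 9 of the 14 tRNAs in the group, so none of them was at either end. With the libraries of each line summed, so that 3 Cl lines faced 1 control line, the log2 changes were -0.84 for mt-tRNA-Trp (edgeR adjusted p = 0.106), -0.72 for mt-tRNA-Ile (edgeR adjusted p = 0.149) and -0.67 for mt-tRNA-Met (edgeR adjusted p = 0.197). The p-values from single libraries measure the spread between passages of a line.

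**Figure D1:**
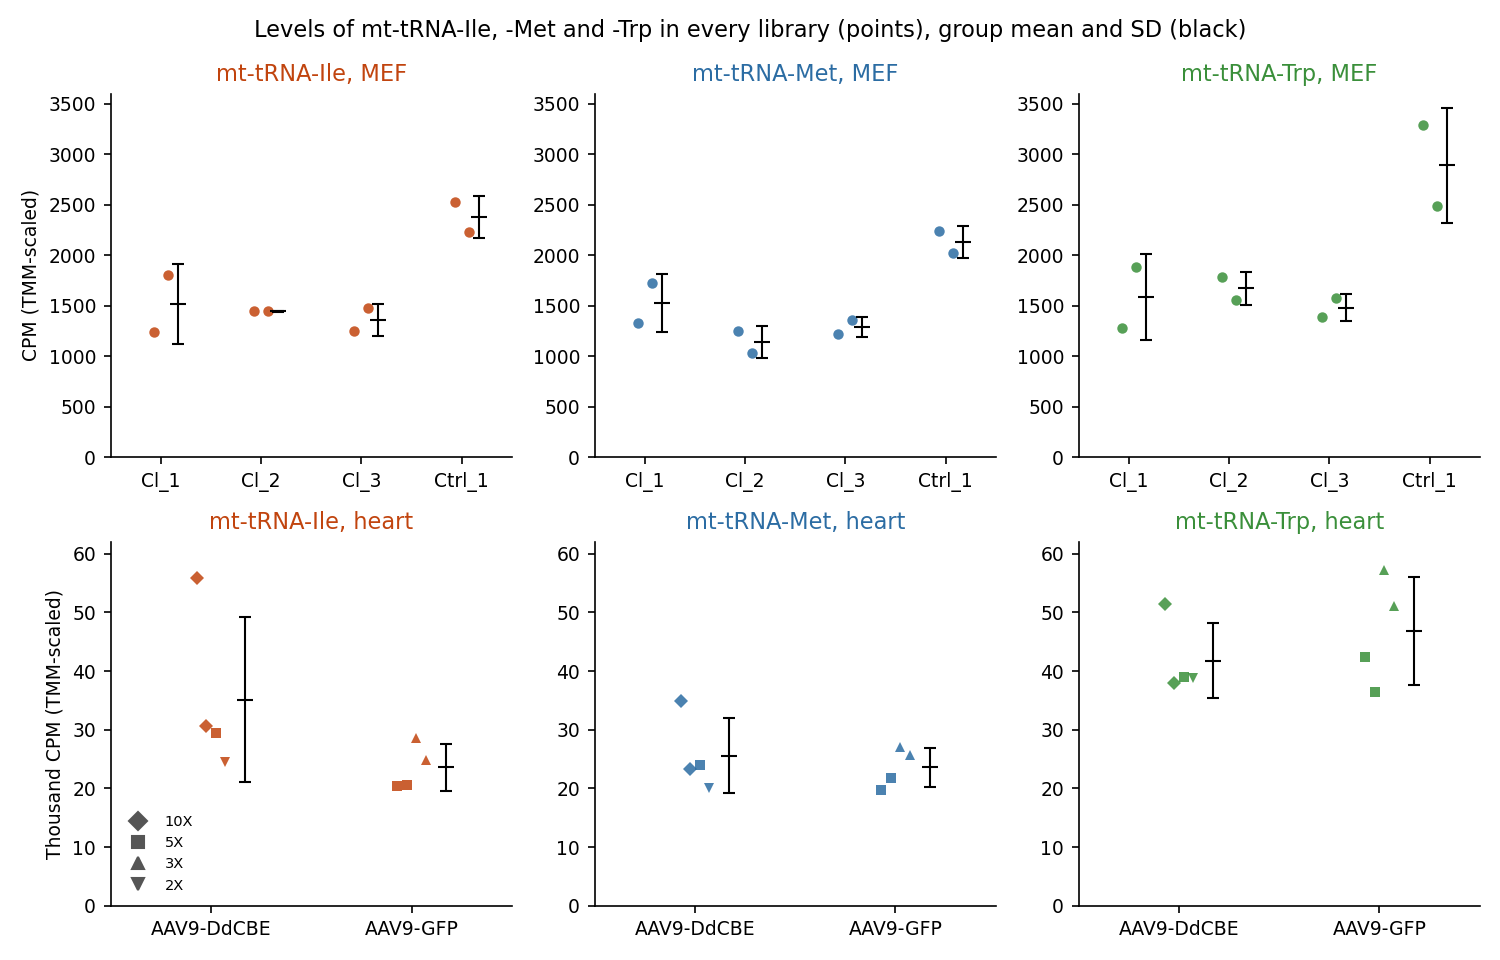
Level of each tRNA in every library, in CPM for the MEF lines (top) and in 1000 CPM for the hearts (bottom). Points are libraries, marker shapes in the heart panels give the X label, and black marks are group means with SD (n = 2 for each line, 4 for each heart group). All 6 Cl libraries lie below both Ctrl_1 libraries in each MEF panel, and the heart groups overlap in each heart panel.

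Line by line, 8 of the 9 differences from Ctrl_1 passed. In Cl_1, mt-tRNA-Trp fell by 0.87 (edgeR adjusted p = 0.0156, SE 0.21), mt-tRNA-Ile fell by 0.64 (adjusted p = 0.0266, SE 0.18), and mt-tRNA-Met was at -0.48 and did not pass (adjusted p = 0.0516, SE 0.16). In Cl_2, mt-tRNA-Met fell by 0.90 (edgeR adjusted p = 0.00456, SE 0.16), mt-tRNA-Trp fell by 0.79 (adjusted p = 0.0180, SE 0.21) and mt-tRNA-Ile fell by 0.72 (adjusted p = 0.0154, SE 0.18). In Cl_3, mt-tRNA-Trp fell by 0.96 (edgeR adjusted p = 0.00766, SE 0.21), mt-tRNA-Ile fell by 0.81 (adjusted p = 0.00840, SE 0.18) and mt-tRNA-Met fell by 0.72 (adjusted p = 0.00787, SE 0.16). Lower calls made up 18.9% of transcripts tested in Cl_1, 20.4% in Cl_2 and 24.4% in Cl_3. The order of the tRNAs by change differed between the lines, with mt-tRNA-Met changed least in Cl_1 and Cl_3 and most in Cl_2. A test of the differences among the Cl lines did not pass for mt-tRNA-Met (largest gap between lines 0.42 on the log2 scale, edgeR F test, adjusted p = 0.179), for mt-tRNA-Ile (0.16, adjusted p = 0.771) or for mt-tRNA-Trp (0.17, adjusted p = 0.790), while 24.4% of all transcripts passed it. That is 49 transcripts, and leaving out 1 library gave 19 without replicate 2 of Cl_3, 27 without replicate 1 and 32 without replicate 2 of Cl_2, and 31 without replicate 1 of Cl_1. The 3 comparisons share their control libraries.

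**Figure D2:**
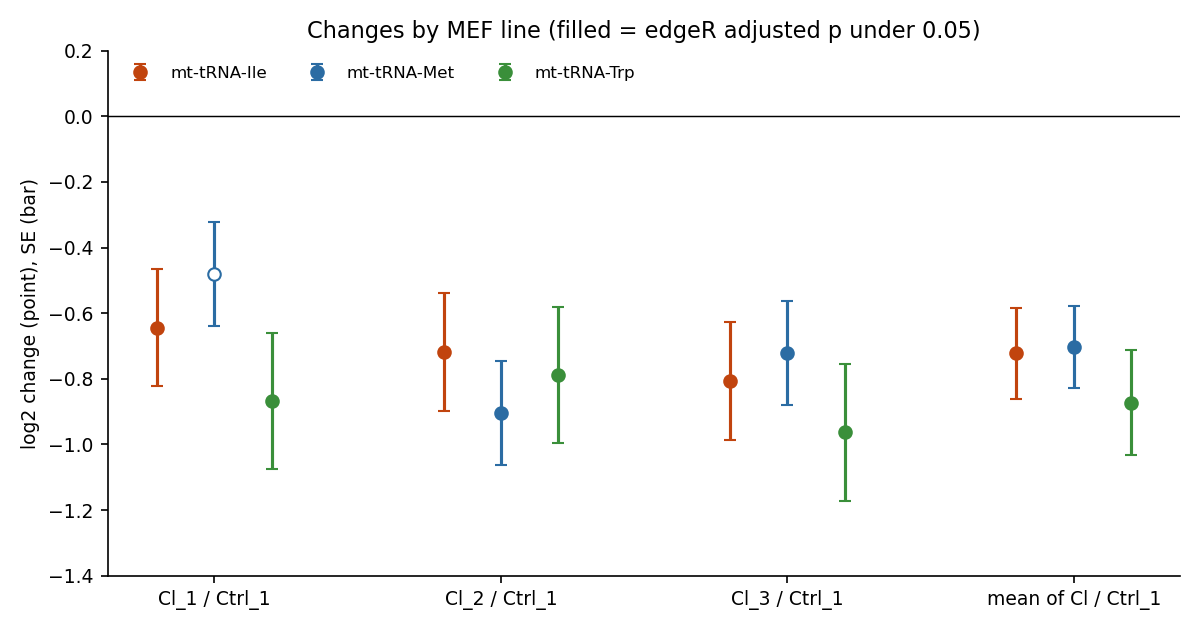
Log2 change of each tRNA in each Cl line and averaged over these lines, against Ctrl_1, with SE bars from the edgeR fit. Filled points passed an adjusted p under 0.05. Every point lies below 0, from -0.48 for mt-tRNA-Met in Cl_1, the open point, to -0.96 for mt-tRNA-Trp in Cl_3.

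Each line has 2 libraries, so leaving out one of Ctrl_1 or of the line itself leaves that arm with 1 library, whose spread is then taken from the other groups, and a call can be lost through the smaller arm alone. Without replicate 1 of Ctrl_1, mt-tRNA-Ile missed the threshold in Cl_1 (-0.57, edgeR adjusted p = 0.113) and in Cl_2 (-0.64, adjusted p = 0.0705), and so did mt-tRNA-Trp in Cl_1 (-0.66, adjusted p = 0.0758) and in Cl_2 (-0.59, adjusted p = 0.0880). Without replicate 1 of Cl_1, mt-tRNA-Ile in that line was at -0.38 (edgeR adjusted p = 0.0977) and mt-tRNA-Trp at -0.60 (adjusted p = 0.0785). Mt-tRNA-Met in Cl_1 passed without replicate 2 of Cl_1 (-0.64, edgeR adjusted p = 0.0341) and when replicate 1 of Cl_2 was left out (-0.49, adjusted p = 0.0450). In Cl_2, mt-tRNA-Ile missed the threshold when replicate 1 of the line was left out (-0.70, edgeR adjusted p = 0.0700) or replicate 2 (-0.72, adjusted p = 0.0694), and mt-tRNA-Trp likewise (-0.87, adjusted p = 0.0524, and -0.70, adjusted p = 0.0999). In Cl_3, mt-tRNA-Ile (-0.70, edgeR adjusted p = 0.0503) and mt-tRNA-Met (-0.66, adjusted p = 0.0521) missed it without replicate 1 of that line. The calls of mt-tRNA-Met in Cl_2, of mt-tRNA-Trp in Cl_3 and of all 3 tRNAs averaged over the Cl lines passed with any single library left out.

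As shares of the mitochondrial pool, none of the 3 tRNAs passed the test between Cl and Ctrl_1. Mt-tRNA-Ile made up 5.37% to 6.05% of all mitochondrial tRNA counts in Cl libraries, against 6.29% and 6.30% in Ctrl_1 (mean difference -0.539 points, exact permutation test, two-sided p = 0.0714, adjusted p = 0.143 over 6 share tests). Its groups did not overlap, as was the case with the Cl libraries lower for 18.2% of the 22 mitochondrial tRNAs. Mt-tRNA-Trp made up 5.84% to 7.43% in the Cl libraries, against 7.02% and 8.22% in Ctrl_1 (-1.30 points, exact permutation test, two-sided p = 0.0714, adjusted p = 0.143), with replicate 1 of Cl_2 above the lower Ctrl_1 library. Mt-tRNA-Met made up 3.93% to 6.03%, against 5.60% and 5.70% (-0.363 points, exact permutation test, two-sided p = 0.536, adjusted p = 0.643), so its Cl libraries lay on both sides of Ctrl_1. The smallest p that 28 splits allow is 0.0357, which passes after adjustment only if nearly all of the 6 share tests are at their smallest. These splits take passages of a line as separate units, and with whole lines as units no such test could pass. The direction depended on the denominator, since as shares of the heavy-strand-transcribed group the differences were 0.287 points for mt-tRNA-Ile and 0.427 points for mt-tRNA-Met, with the Cl libraries higher in the mean, and -0.567 points for mt-tRNA-Trp, and none passed (exact permutation tests, adjusted p = 0.536, 0.771 and 0.536). The lowest count, 1562 for mt-tRNA-Met in replicate 2 of Cl_2, gave a share of 3.93% with a 95% Wilson interval of 3.75% to 4.13%, which covers counting error only. With the 19 other mitochondrial tRNAs as the scale, the mean log2 changes were -0.31 for mt-tRNA-Trp (edgeR adjusted p = 0.0797), -0.17 for mt-tRNA-Ile (adjusted p = 0.300) and -0.14 for mt-tRNA-Met (adjusted p = 0.398), and no line gave a call.

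The ratios of the tRNAs to each other, which need no scaling, overlapped between the Cl and Ctrl_1 libraries. As with the shares, the tests and SDs take passages of a line as separate units. The log2 ratio of mt-tRNA-Trp to mt-tRNA-Ile counts was 0.13 ± 0.093 in the Cl libraries and 0.27 ± 0.16 in Ctrl_1 (SD, n = 6 and n = 2, difference -0.14, exact permutation test, two-sided p = 0.107, adjusted p = 0.161 over 6 ratio tests). That of mt-tRNA-Trp to mt-tRNA-Met was 0.26 ± 0.25 in the Cl libraries and 0.43 ± 0.18 in Ctrl_1 (SD, exact permutation test, two-sided p = 0.393, adjusted p = 0.471). That of mt-tRNA-Ile to mt-tRNA-Met was 0.13 ± 0.20 in the Cl libraries and 0.16 ± 0.018 in Ctrl_1 (SD, exact permutation test, two-sided p = 0.893, adjusted p = 0.893). By line, the ratio of mt-tRNA-Trp to mt-tRNA-Met was 0.039 in Cl_1, 0.56 in Cl_2 and 0.20 in Cl_3, with both Cl_2 passages, at 0.52 and 0.60, above the 4 other Cl libraries.

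Of the opposite-strand neighbours, mt-tRNA-Ala fell in the MEFs and mt-tRNA-Gln did not pass the test. Mt-tRNA-Gln, which lies between mt-tRNA-Ile and mt-tRNA-Met, had 488.8 to 753.5 CPM in the Cl libraries, against 482.8 and 602.4 CPM in Ctrl_1. Its mean log2 change was 0.22 and did not pass (SE 0.21, edgeR adjusted p = 0.439). Mt-tRNA-Ile had 1.84 to 2.83 times the counts of mt-tRNA-Gln in the Cl libraries, against 5.22 and 3.70 times in Ctrl_1. Mt-tRNA-Met had 1.39 to 2.71 times those counts in the Cl libraries, against 4.65 and 3.35 times in Ctrl_1. Neither overlapped between the groups, as was so for 46.3% of all 231 pairs of mitochondrial tRNAs. Mt-tRNA-Trp had 5.41 to 15.1 times the counts of its neighbour mt-tRNA-Ala in the Cl libraries, against 5.60 and 5.45 times in Ctrl_1. The lowest value belonged to replicate 2 of Cl_2, so this ratio overlapped between the groups.

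**Figure D3:**
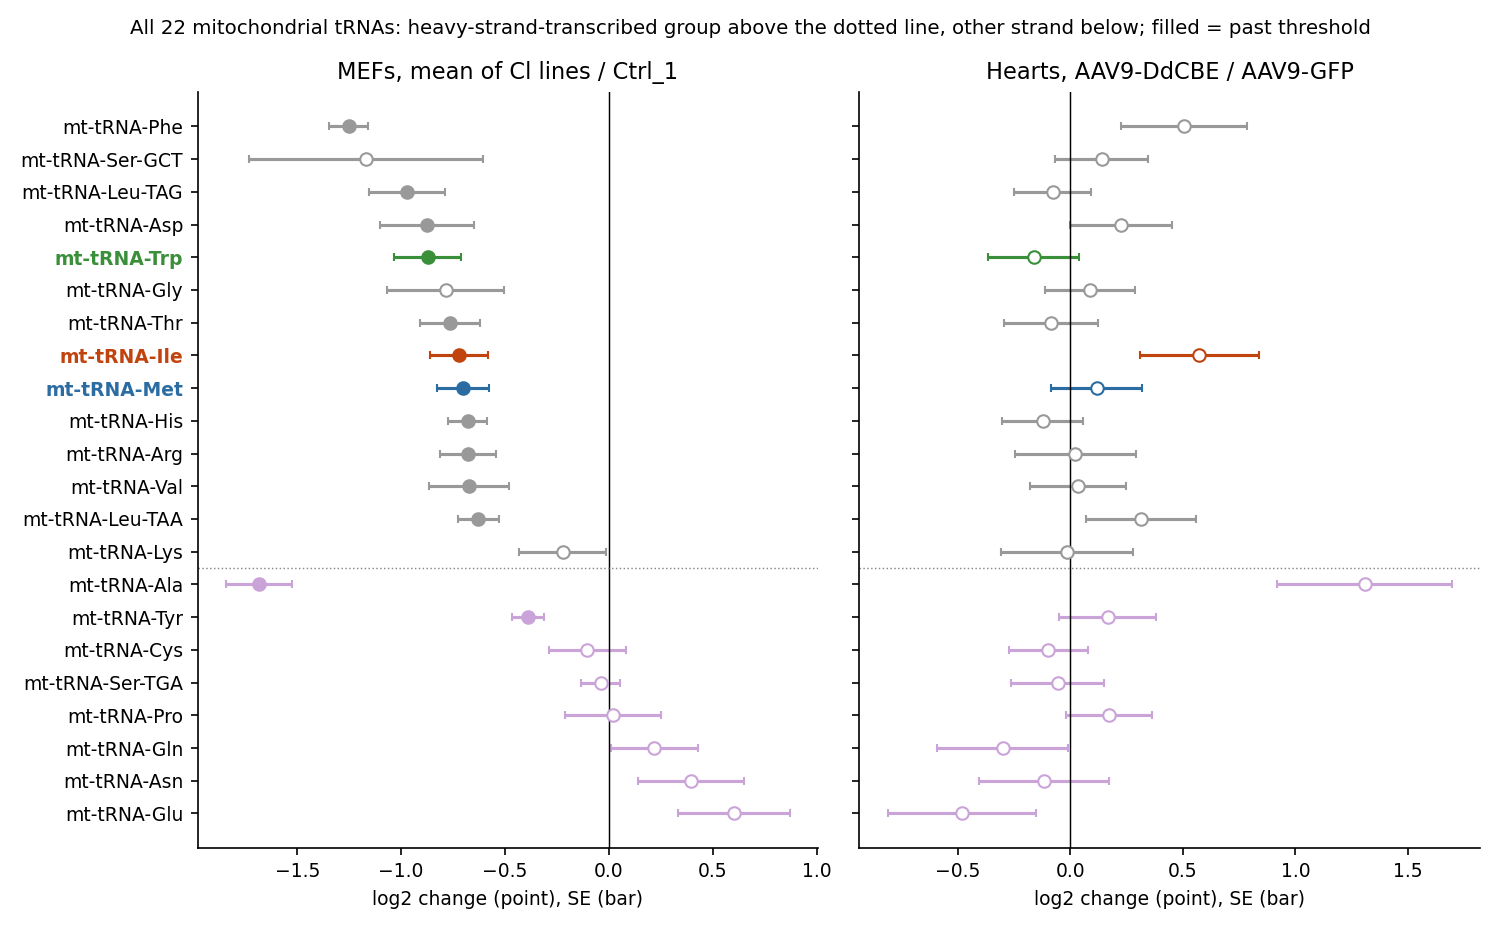
Log2 change of each of the 22 mitochondrial tRNAs averaged over the Cl lines, against Ctrl_1 (left) and in AAV9-DdCBE against AAV9-GFP hearts (right), with SE bars from the edgeR fits. The heavy-strand-transcribed group is above the dotted line, the other strand below it, and filled points passed an adjusted p under 0.05. In the MEFs mt-tRNA-Trp, mt-tRNA-Ile and mt-tRNA-Met lie in the middle of their group, and in the hearts mt-tRNA-Ile at 0.57 and mt-tRNA-Trp at -0.16 are at its ends.

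In the hearts none of the 3 tRNAs passed the test of AAV9-DdCBE against AAV9-GFP. Mt-tRNA-Ile had 55802 CPM in mouse 17, 30636 in mouse 18, 29418 in mouse 25 and 24447 in mouse 26 of AAV9-DdCBE, against 20351 CPM in mouse 5, 20493 in mouse 6, 28660 in mouse 14 and 24767 in mouse 19 of AAV9-GFP. Mouse 17 stood far above the other 7 hearts, and mouse 26, the only 2X heart, lay within the AAV9-GFP range. The log2 difference was 0.57 (SE 0.26, edgeR adjusted p = 0.268). Mt-tRNA-Met had 34865 CPM in mouse 17, 23357 in mouse 18, 24038 in mouse 25 and 20086 in mouse 26, against 19781 CPM in mouse 5, 21836 in mouse 6, 27065 in mouse 14 and 25695 in mouse 19 of AAV9-GFP. Apart from mouse 17 the AAV9-DdCBE hearts lay inside the AAV9-GFP range, and the log2 difference was 0.12 (SE 0.20, edgeR adjusted p = 0.702). Mt-tRNA-Trp had 51404 CPM in mouse 17, 37975 in mouse 18, 38993 in mouse 25 and 38787 in mouse 26, against 42431 CPM in mouse 5, 36389 in mouse 6, 57199 in mouse 14 and 51169 in mouse 19 of AAV9-GFP. All 4 AAV9-DdCBE hearts fell inside the AAV9-GFP range, and the log2 difference was -0.16 (SE 0.20, edgeR adjusted p = 0.597).

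For this comparison edgeR called 0% of 180 transcripts, with 35 at an unadjusted p under 0.05, and DESeq2 called 27. Neither number includes mt-tRNA-Ile, mt-tRNA-Met or mt-tRNA-Trp. Without mouse 17 the log2 differences were 0.26 for mt-tRNA-Ile (edgeR adjusted p = 0.451) and -0.069 for mt-tRNA-Met (adjusted p = 0.783). Mt-tRNA-Ile had the highest and mt-tRNA-Trp the lowest log2 difference of the 14 tRNAs in the heavy-strand-transcribed group, whose other 11 members had a median of 0.034 and a range of -0.12 to 0.51. The median over all 180 transcripts was -0.10. The opposite-strand neighbour mt-tRNA-Gln was at -0.30 (edgeR adjusted p = 0.485). Mt-tRNA-Ile had 14.5, 13.6, 10.6 and 4.69 times the counts of mt-tRNA-Gln in mice 17, 18, 25 and 26 of AAV9-DdCBE, against 4.39, 4.27, 11.2 and 4.63 times in mice 5, 6, 14 and 19 of AAV9-GFP. Mouse 14 of AAV9-GFP lay inside the AAV9-DdCBE range, and mouse 26 of AAV9-DdCBE, at 4.69, lay just above mouse 19 of AAV9-GFP, at 4.63. Mt-tRNA-Trp had 7.76, 8.80, 11.5 and 21.9 times the counts of mt-tRNA-Ala in mice 17, 18, 25 and 26, against 26.0, 17.4, 67.1 and 26.4 times in mice 5, 6, 14 and 19, where mouse 26 lay above the lowest AAV9-GFP heart.

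The ratio of mt-tRNA-Ile to mt-tRNA-Met and that of mt-tRNA-Trp to mt-tRNA-Ile did not overlap between the heart groups. Both ratios hold the same mt-tRNA-Ile counts, so they are not independent of each other. The log2 ratio of mt-tRNA-Ile to mt-tRNA-Met counts was 0.68 in mouse 17, 0.39 in mouse 18, 0.29 in mouse 25 and 0.28 in mouse 26 of AAV9-DdCBE, against 0.041 in mouse 5, -0.092 in mouse 6, 0.083 in mouse 14 and -0.053 in mouse 19 of AAV9-GFP. Both tRNAs had near-equal counts in the AAV9-GFP hearts, while mt-tRNA-Ile was the more frequent in each AAV9-DdCBE heart. The difference was 0.42, a 1.33-fold higher ratio (adjusted p = 0.0857 over 6 ratio tests, two-sided p = 0.0286 in an exact permutation test, the lowest value possible with 70 splits). The log2 ratio of mt-tRNA-Trp to mt-tRNA-Ile was -0.12 in mouse 17, 0.31 in mouse 18, 0.41 in mouse 25 and 0.67 in mouse 26 of AAV9-DdCBE, against 1.06 in mouse 5, 0.83 in mouse 6, 0.997 in mouse 14 and 1.05 in mouse 19 of AAV9-GFP. The highest AAV9-DdCBE heart was below the lowest AAV9-GFP heart. The difference was -0.67, a 1.59-fold lower ratio (exact permutation test, two-sided p = 0.0286, adjusted p = 0.0857). Neither passed after adjustment. A ratio at its lowest possible p could pass only if nearly all of the 6 ratio tests were at theirs, so the adjusted test could not decide here. Groups that did not overlap were found for 8.66% of all 231 pairs of mitochondrial tRNAs and for 13.2% of the 91 pairs within the heavy-strand-transcribed group.

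The third ratio, of mt-tRNA-Trp to mt-tRNA-Met, was 0.56 to 0.95 in the AAV9-DdCBE hearts and 0.74 to 1.10 in the AAV9-GFP hearts, which overlap (difference -0.25, exact permutation test, two-sided p = 0.0571, adjusted p = 0.114). With 1 heart left out at a time, the difference in the ratio of mt-tRNA-Ile to mt-tRNA-Met ran from 0.33 to 0.46, and that in the ratio of mt-tRNA-Trp to mt-tRNA-Ile from -0.78 to -0.52. The lowest sizes of both came without mouse 17. Among the AAV9-DdCBE hearts the ratio of mt-tRNA-Trp to mt-tRNA-Ile was lowest in both 10X hearts, next in the 5X heart and highest in the 2X heart. Only the label 5X occurs in both treatments, with 0.41 in mouse 25 of AAV9-DdCBE, against 1.06 and 0.83 in mice 5 and 6 of AAV9-GFP, so treatment and label cannot be told apart for the others.

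**Figure D4:**
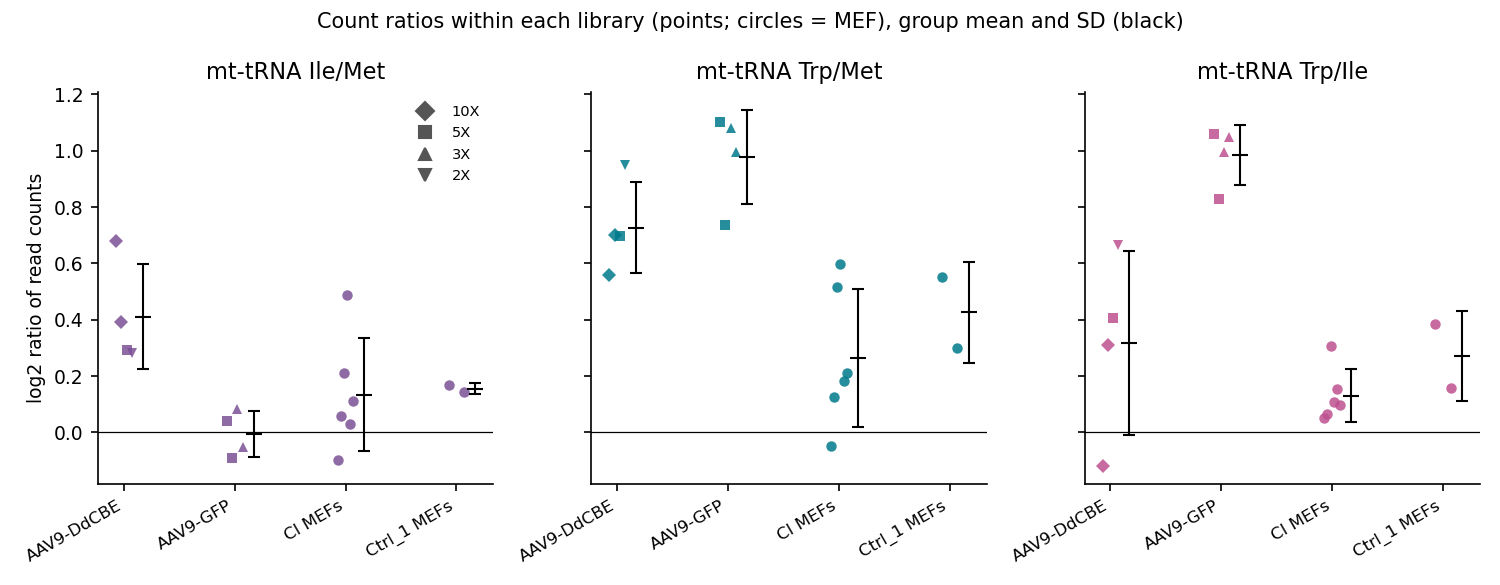
Log2 ratio of read counts between the tRNAs within each library, for mt-tRNA-Ile over mt-tRNA-Met, mt-tRNA-Trp over mt-tRNA-Met and mt-tRNA-Trp over mt-tRNA-Ile. Points are libraries (circles for MEFs, other shapes for hearts by X label) and black marks are group means with SD (n = 4 per heart group, 6 Cl and 2 Ctrl_1 libraries). The AAV9-DdCBE and AAV9-GFP hearts do not overlap for the first and the last ratio, and the MEF groups overlap for all 3.

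As shares of mitochondrial tRNA counts, mt-tRNA-Ile made up 8.81%, 7.80%, 7.99% and 6.21% in mice 17, 18, 25 and 26 of AAV9-DdCBE, against 5.34%, 5.30%, 6.79% and 5.23% in mice 5, 6, 14 and 19 of AAV9-GFP. The groups overlapped through mouse 26 and mouse 14, and the difference of 2.04 points did not pass (exact permutation test, two-sided p = 0.0571, adjusted p = 0.143 over 6 share tests). Mt-tRNA-Trp made up 9.56% ± 1.04 in the AAV9-DdCBE hearts and 11.2% ± 1.72 in the AAV9-GFP hearts (SD, n = 4 each, two-sided p = 0.171 in an exact permutation test, adjusted p = 0.257). Mt-tRNA-Met made up 5.77% ± 0.614 in the AAV9-DdCBE hearts and 5.67% ± 0.527 in the AAV9-GFP hearts (SD, n = 4 each), a difference of 0.103 points that was below either SD and did not pass. The half-width of the 95% Wilson interval of a share was 0.0331 to 0.0829 points in the hearts and 0.118 to 0.233 points in the MEFs, below the spread between libraries in the hearts.

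In the 2 hearts labelled 10X, set against the 4 AAV9-GFP hearts, mt-tRNA-Ile rose by 0.87 on the log2 scale (1.83-fold, SE 0.27, edgeR adjusted p = 0.0256). This split was chosen with earlier results of these data known, so its p-values are descriptive only. Mt-tRNA-Met was at 0.30 (SE 0.22, edgeR adjusted p = 0.266) and mt-tRNA-Trp at -0.066 (SE 0.25, adjusted p = 0.825), neither past the threshold. Higher calls made up 23.9% of the 180 transcripts tested and lower calls 27.8%, and the median of all transcripts was -0.23. Without mouse 17 the value of mt-tRNA-Ile was 0.38. That fit sets 1 heart, mouse 18, against 4 and takes its spread from the AAV9-GFP hearts. On the scale of the 19 other mitochondrial tRNAs, mt-tRNA-Ile was at 0.55 and passed (edgeR adjusted p = 0.0356). The sign of mt-tRNA-Trp depended on the scaling, with 0.13 under DESeq2 size factors, 0.37 scaled on nuclear tRNAs and -0.34 scaled on the 19 other mitochondrial tRNAs.

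The ranks of mt-tRNA-Ile and mt-tRNA-Met within the mitochondrial pool overlapped between the hearts and the MEFs, and those of mt-tRNA-Trp met at number 3. By counts per base of gene length, mt-tRNA-Trp ranked between number 1 and number 3 of the 22 mitochondrial tRNAs in the hearts and between number 3 and number 8 in the MEFs. Mt-tRNA-Ile ranked between 2 and 10 in the hearts and between 6 and 11 in the MEFs, and mt-tRNA-Met between 6 and 10 in the hearts and between 7 and 13 in the MEFs. By plain counts, mt-tRNA-Trp ranked between 1 and 3 in the hearts and between 3 and 10 in the MEFs. Mt-tRNA-Ile kept its ranges, and mt-tRNA-Met ranked between 7 and 9 in the hearts and between 8 and 13 in the MEFs. Per base and per 1000000 mitochondrial tRNA counts, mt-tRNA-Trp had 1551 ± 237 counts in the hearts and 991 ± 126 in the MEFs (SD, n = 8 each). Mt-tRNA-Ile had 969 ± 202 in the hearts and 854 ± 50.4 in the MEFs, and mt-tRNA-Met 829 ± 77.2 in the hearts and 780 ± 93.5 in the MEFs (SD, n = 8 each). Per base, mt-tRNA-Trp was the highest of the 3 in every library except replicate 1 of Cl_1, where mt-tRNA-Met was, and mouse 17, where mt-tRNA-Ile was. Mt-tRNA-Ile was above mt-tRNA-Met except in replicate 1 of Cl_1 and in mice 6 and 19 of AAV9-GFP. Over all libraries of a set, which pools the groups, the means of mt-tRNA-Ile and mt-tRNA-Met differed by less than the larger of their SDs, while mt-tRNA-Trp exceeded mt-tRNA-Ile by more than either SD. The sets were counted in separate tables, so no test was made between them.

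Across the 8 MEF libraries, the transcript with the most similar pattern to mt-tRNA-Ile and to mt-tRNA-Trp was mt-tRNA-Leu-TAA (Pearson r of log2 CPM 0.98 for both, over 200 other transcripts). Mt-tRNA-Ile was next most like mt-tRNA-Trp (0.97) and mt-tRNA-Val (0.96), and mt-tRNA-Trp next most like mt-tRNA-Ile (0.97) and mt-tRNA-Phe (0.94). Mt-tRNA-Met was most like the nuclear tRNA-Met-CAT-2 (0.94), mt-tRNA-Leu-TAA (0.91) and the nuclear tRNA-Pro-AGG-1 (0.91). Across the 8 hearts, mt-tRNA-Ile was most like mt-tRNA-Phe (0.93), mt-tRNA-Asp (0.93) and the nuclear tRNA-Phe-GAA-2 (0.91). Mt-tRNA-Met was most like mt-tRNA-Gly (0.95), mt-tRNA-Asp (0.94) and mt-tRNA-Tyr (0.93). Mt-tRNA-Trp was most like mt-tRNA-Leu-TAG (0.89), mt-tRNA-Ser-TGA (0.79) and mt-tRNA-Met (0.69), while its r with mt-tRNA-Ile was 0.43, number 18 of 179. These libraries share their groups and the scaling, so the values describe likeness only.

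Among nuclear tRNAs for the same amino acids, which serve cytosolic translation, 5 of 19 tested rose and 3 fell in the MEFs, while 22.9% of all transcripts tested were called higher and 25.4% lower. Of 5 nuclear tRNA-Ile transcripts tested 1 fell, tRNA-Ile-TAT-2 (-0.18, edgeR adjusted p = 0.0318), and the median was 0.060. Of 10 nuclear tRNA-Met and initiator tRNA-iMet transcripts 2 rose, tRNA-Met-CAT-1 (0.36) and tRNA-Met-CAT-3 (0.52), and 2 fell, tRNA-Met-CAT-2 (-0.23) and tRNA-iMet-CAT-4 (-0.87), which was near the filter with 1.16 to 3.88 CPM in the Cl libraries, against 5.23 and 3.32 CPM in Ctrl_1. Of 4 nuclear tRNA-Trp transcripts 3 rose, tRNA-Trp-CCA-2 (0.40), tRNA-Trp-CCA-3/4 (0.26) and tRNA-Trp-CCA-5 (0.41), while mt-tRNA-Trp fell. In the hearts none of 5, 8 and 4 such transcripts passed between AAV9-DdCBE and AAV9-GFP (edgeR). Those 8 tRNA-Met and tRNA-iMet transcripts ran from -0.40 to 3.69, the highest being tRNA-Met-CAT-4 (edgeR adjusted p = 0.0775). In the 10X hearts against AAV9-GFP, 23.9% of all transcripts tested were called higher and 27.8% lower. There, 1 of 5 nuclear tRNA-Ile transcripts tested was called higher and 2 lower. Of 8 tRNA-Met and tRNA-iMet transcripts 2 were called higher and 4 lower, and of 4 tRNA-Trp transcripts 1 higher and 2 lower. Over all transcripts, the split of higher and lower calls there depended on the scaling.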

How the data were processed

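Total RNA was oxidised and beta-eliminated and sequenced by mim-tRNAseq, a method for full-length tRNA reads, per the labels' protocols. The authors deposited raw read counts per tRNA transcript, without normalization, in separate MEF and heart tables. Charged and uncharged tRNA are pooled in these counts. Per the submitters' processing notes, cutadapt 3.5 and mm39 were used. The aligner and counter were not given in the sources used here. Gene order and lengths were read from RefSeq (GRCm38.p6), where all 22 mitochondrial tRNAs were matched.

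Counts were fitted per table over all transcripts in R 4.3.3 with edgeR 4.0.16 (TMM, filterByExpr with minimum count 10 and total 15, quasi-likelihood test, Benjamini-Hochberg, threshold 0.05), leaving 201 transcripts in the MEFs and 180 in the hearts. DESeq2 1.42.0 was an alternative. The SE is the log2 change divided by the square root of F. Shares and count ratios were compared by exact permutation over libraries. Alternatives were other scalings, no filter, a replicate block, summed lines and leaving out each library. The fits were tested on data simulated from their own estimated spread with independent libraries, which cannot test the effect of having few lines. Likeness was ranked by Pearson r of log2 CPM (prior count 2), naming the 3 highest; mt-tRNA-Gln and mt-tRNA-Ala were named as neighbours. The tRNAs, lists and tests were chosen with earlier results of these data known, among them the 10X split. Every replicate pair differed beyond counting noise, with a chi-square of 98.2 to 1889 per degree of freedom.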

Additional observations from a re-analysis of the deposited data

Results flagged for a closer look

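Among 18 sets of 4 hearts examined (level, share and ratios of each tRNA in each treatment), 2 held a heart far from its group, and chance alone gives about 1 in 20. For mt-tRNA-Trp, mouse 17 of AAV9-DdCBE had 51404 CPM, against 37975 to 38993 CPM in the other AAV9-DdCBE hearts. Mouse 17 also had the highest share of mitochondrial tRNAs, 59.9% of its counts. For mt-tRNA-Ile, mouse 14 of AAV9-GFP had 6.79% of mitochondrial tRNA counts, against 5.23% to 5.34% in the other AAV9-GFP hearts. Mouse 14 also had the fewest counts of all hearts, 1540287, and the highest level of mt-tRNA-Trp, 57199 CPM. The part of depth or of the mitochondrial share in these values was not tested.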

How the results depend on the processing

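Averaged over the Cl lines, mt-tRNA-Ile, mt-tRNA-Met and mt-tRNA-Trp kept their direction and passed in 14 of 16 alternatives each; leaving out 1 library gave -0.82 to -0.64, -0.77 to -0.64 and -1.05 to -0.67. They missed the threshold scaled on the 19 other mitochondrial tRNAs (-0.17, -0.14 and -0.31), which sets their common fall with those tRNAs aside by construction, and with lines summed (-0.72, -0.67 and -0.84, fewer samples). On that mitochondrial scaling the values were, in the same order, -0.14, 0.035 and -0.36 in Cl_1, -0.17, -0.35 and -0.23 in Cl_2, and -0.19, -0.11 and -0.34 in Cl_3. In Cl_1, mt-tRNA-Ile missed the threshold on library totals (-0.57) and nuclear counts (-0.59), and mt-tRNA-Met passed with DESeq2 (-0.48, adjusted p = 0.0210) and unfiltered (-0.48, adjusted p = 0.00814); the cause was not tested. Leaving out 1 library gave -0.89 to -0.38, -0.64 to -0.29 and -1.13 to -0.60 in Cl_1, -0.79 to -0.64, -1.03 to -0.78 and -0.96 to -0.59 in Cl_2, and -0.93 to -0.70, -0.80 to -0.66 and -1.13 to -0.76 in Cl_3. Differences among the Cl lines stayed uncalled in all 15 alternatives for each tRNA.

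The replicate numbers of the MEF lines are passages that the labels do not pair, and the deviations of same-numbered libraries correlated by 0.070 to 0.25. With a replicate block the mean changes were -0.73, -0.70 and -0.88, no call of the 3 tRNAs changed, the count of calls was 105, against 97 without it, and the ratio differences were the same by construction.

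In the hearts, mt-tRNA-Trp was at 0.10 scaled on nuclear tRNAs. Leaving out 1 heart gave 0.26 to 0.84 for mt-tRNA-Ile, -0.069 to 0.34 for mt-tRNA-Met and -0.28 to 1.76e-04 for mt-tRNA-Trp, none called. In the 10X hearts, mt-tRNA-Trp was at 0.13 with DESeq2 size factors and with the DESeq2 test, 0.011 on library totals, 0.37 on nuclear counts and 0.16 unfiltered. Leaving out 1 heart gave 0.38 to 1.25, -0.015 to 0.57 and -0.30 to 0.14 there. As a share of the heavy-strand-transcribed group, the Cl minus Ctrl_1 difference turned to 0.287 points for mt-tRNA-Ile and 0.427 for mt-tRNA-Met. Leaving out 1 library gave share differences of -0.597 to -0.461, -0.512 to -0.0920 and -1.90 to -0.703 points in the MEFs and 1.67 to 2.54, -0.151 to 0.350 and -2.27 to -0.893 in the hearts. For the MEF ratios it gave -0.093 to 0.025 (mt-tRNA-Ile to mt-tRNA-Met), -0.29 to -0.036 (mt-tRNA-Trp to mt-tRNA-Met) and -0.25 to -0.027 (mt-tRNA-Trp to mt-tRNA-Ile), and for mt-tRNA-Trp to mt-tRNA-Met in the hearts -0.33 to -0.19.

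Counts of all calls moved by over 1.5 times, averaged over the Cl lines, without replicate 1 of Ctrl_1 (59, against 97) and with lines summed (9). On the 19 other mitochondrial tRNAs, 104 were called in Cl_1, against 68, and 30 among the Cl lines, against 49. In the hearts 0 calls became 14 on library totals and on the other mitochondrial tRNAs and 27 with DESeq2. For the 10X hearts 93 became 57 on library totals, 59 on the other mitochondrial tRNAs and 41 without mouse 17. The split of higher and lower calls averaged over the Cl lines was 46 and 51, against 61 and 35 on library totals, 60 and 35 on nuclear counts and 120 and 6 on the other mitochondrial tRNAs, where the median of all transcripts was 0.56. For the 10X hearts it was 43 and 50, against 49 and 15 with DESeq2 size factors and 60 and 6 on nuclear counts. Leaving out 1 library, which can leave an arm with 1 library with its spread taken from the other groups, also moved counts of calls: among the Cl lines to 19 at the lowest, without replicate 2 of Cl_3 (against 49), in Cl_1 to 43 without replicate 1 of Ctrl_1 (against 68), in Cl_2 to 54 without it and 53 without replicate 1 of Cl_2 (against 93), in Cl_3 to 66 without it and 57 without replicate 2 of Cl_3 (against 102), in the hearts to 19 without mouse 25 and 31 without mouse 26 (against 0), and in the 10X hearts to 45 without mouse 6 and 50 without mouse 5 (against 93).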
